A study of Mus musculus with 8 samples.

Results

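The clustered histone genes are the replication-dependent genes of the linker histone H1 and the core histones H2A, H2B, H3 and H4. They were taken as every row whose symbol runs from Hist1h to Hist4h followed by a type number, with the transcripts of a symbol summed. This gave 67 genes of the 24151 in the files: 54 in the Hist1 cluster on chromosome 13, 10 in Hist2 on chromosome 3, 2 in Hist3 on chromosome 11 and 1 in Hist4 on chromosome 6. By type there were 6 H1, 18 H2A, 18 H2B, 12 H3 and 13 H4 genes.

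The values come from embryonic kidneys of ICR mice, an outbred stock, with no transgene or deletion named in the labels. Dams of the CPF group received chlorpyrifos, an organophosphate insecticide, subcutaneously once a day over gestation days 7.5 to 11.5, at 5 mg/kg in dimethyl sulfoxide (DMSO). Dams of the DMSO group received the same volume of solvent on those days, so all embryos were exposed to DMSO. There was 1 library for each agent at each of 4 stages, E12.5, E14.5, E16.5 and then E18.5, 8 in all. The sources used here do not state the number of embryos or litters per library, so p-values measure only the spread between these libraries. Values are TPM, read numbers per transcript length scaled so that each library sums to 1000000. Where 4 values of an agent follow each other, they stand in the order of the stages.

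Histone proteins package DNA, and a cell that copies its genome needs new ones at once, so these genes are switched on as S phase begins, by NPAT at nuclear histone locus bodies. Their mRNAs have no introns and usually no poly(A) tail: they end just after a stem-loop in the 3′ UTR, which is bound by SLBP and cut with the help of the U7 small nuclear RNP, and they decay when replication stops. In the growing kidney, where nephron progenitors and tubule tips divide, they are read as a sign of dividing cells, whereas replacement histones such as H3f3a are made throughout the cell cycle. The sources used here do not state whether poly(A) RNA was selected or rRNA depleted. In such bulk samples, fewer cells of a type and less RNA per cell cannot be told apart.

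The stem-loop is the element these transcripts share, and its forms are shown here because they follow histone type. A stem of 6 base pairs (G-T pairs allowed) that opens with GG, around a loop of 4 bases that opens with TT, was found in the GENCODE M21 transcripts of 44 of the 67 members, and in 44 of the 50 whose transcript model runs at least 50 bases past the stop codon. Among all GENCODE protein-coding transcripts 1.23% hold such an element. In the lines below the stems are in capitals, with 5 bases on either side, on the sense strand as DNA.
Hist1h3d: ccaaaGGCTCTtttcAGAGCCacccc
Hist1h3f: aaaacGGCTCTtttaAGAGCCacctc
Hist2h2ac: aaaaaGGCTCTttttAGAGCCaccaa
Hist1h4d: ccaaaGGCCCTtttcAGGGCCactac
Hist2h4: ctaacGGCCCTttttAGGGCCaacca
Hist1h4b: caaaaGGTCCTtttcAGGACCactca
The core of Hist1h3d was found in 26 members, that of Hist1h3f in 6, that of Hist2h2ac in 1, that of Hist1h4d in 7, and those of Hist2h4 and Hist1h4b in 2 each. The GGCCCT and GGTCCT stems stood only in H4 members among those searched. In the only Hist1h2bc model searched, which runs 742 bases past its stop codon, no such element was found.

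Upstream sequence differed by type as well. Promoters of RefSeq (GRCm38.p6) were found for 62 members and searched over 250 bases before to 50 bases after the start site, on both strands, for 4 motifs, none of which contains another. CCAAT stood in 85.5% of member promoters, against 37.4% of 32851 promoters of all genes: in 100% of the H1, H2A, H2B and H3 promoters and in 3 of 12 H4 promoters. TATAAA stood in 56.5%, against 13.6%. The octamer ATTTGCAT stood in 7 of 18 H2A and 6 of 16 H2B promoters and in none of the other types, against 1.74% of all promoters. In 12 pairs an H2A and an H2B gene start 163 to 280 bases apart on opposite strands. The stretches searched for such partners overlap, so 1 motif can count for both, and the H2A and H2B counts are not separate. The hexamer GGTCCG stood in 11 of 12 H4 promoters, against 8.25% of all. The 250 bases before the start site are printed for Hist1h2bg, an H2B gene with a marked dip among the DMSO libraries, for the testis H2B gene Hist1h2ba, and for the H4 gene with the highest level, with these motifs in capitals.
Hist1h2bg, chr13:23571150-23571399, plus strand: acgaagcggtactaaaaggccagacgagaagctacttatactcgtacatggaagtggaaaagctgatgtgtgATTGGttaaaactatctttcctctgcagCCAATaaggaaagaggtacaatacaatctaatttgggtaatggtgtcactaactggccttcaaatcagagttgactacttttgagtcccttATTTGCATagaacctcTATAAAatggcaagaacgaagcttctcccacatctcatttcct
Hist1h2ba, chr13:23934157-23934406, minus strand: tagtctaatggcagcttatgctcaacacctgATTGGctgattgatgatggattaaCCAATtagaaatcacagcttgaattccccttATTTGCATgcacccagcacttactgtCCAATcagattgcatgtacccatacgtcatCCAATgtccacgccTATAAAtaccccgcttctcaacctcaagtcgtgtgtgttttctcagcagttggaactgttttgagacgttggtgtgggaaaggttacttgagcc
Hist1h4d, chr13:23581318-23581567, plus strand: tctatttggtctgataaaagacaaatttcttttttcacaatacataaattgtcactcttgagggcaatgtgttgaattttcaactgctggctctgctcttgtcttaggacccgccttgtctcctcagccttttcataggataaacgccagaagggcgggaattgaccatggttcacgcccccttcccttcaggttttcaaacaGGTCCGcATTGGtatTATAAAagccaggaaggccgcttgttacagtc
Both H2B promoters hold the octamer and CCAAT, and the H4 promoter holds the hexamer just before its TATAAA. The Hist1h2bg stretch also holds the start of Hist1h2ae, an H2A gene read in the other direction, whose start site lies 179 bases away.

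Facts of the libraries that bear on the members are these. Rpph1 and Rmrp, RNA subunits of 2 ribonucleases, took 19.3 to 21.8% of TPM under CPF and 19.6, 23.6, 31.0 and 41.8% under DMSO, which lowers every other TPM value there. Coding transcripts accordingly held 72.7 to 73.9% of TPM under CPF and 75.1, 69.7, 63.2 and 53.3% in DMSO, so sums are given on both scales. All 7 kidney markers listed were present in all 8 libraries, with summed levels of 190 to 360 TPM under CPF and 214 to 484 TPM in DMSO. Markers of other organs mostly stood higher in CPF. All measurable liver (7), adrenal cortex (6), erythroid (5), germ cell (4) and skeletal muscle (4) genes lay above 0 in the difference across stages. There 27.4% of all 13677 tested genes lay below 0. Of these markers, only Ambp and Actc1 passed the test of that difference. Their lists' summed levels were higher in CPF at each stage, except for erythroid genes at E18.5 and germ cell genes at E12.5. The erythroid sum was 17.8 TPM under CPF and 45.5 TPM in DMSO, and the germ cell sum 9.13 and 10.1 TPM. At E14.5 and E16.5 the CPF libraries held the most liver RNA, 4455 and 5096 TPM over 8 genes, against 13.1 to 881 TPM in DMSO libraries, and the most adrenal RNA, 372 and 450 TPM over 6 genes, against 4.65 to 20.4 TPM. Serpina1a, Ddx4 and Acta1 were at or near 0 in every library; each has several RefSeq transcripts, and genes of that kind are listed low throughout the files. The part of these differences in the histone values was not tested.

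Of the 67 members, 57 reached 1 TPM in at least 2 libraries and entered the tests, and 52 had a mean of at least 100 TPM. The 10 others were Hist1h2ao, Hist1h2ap, Hist1h2bq, Hist1h2br, Hist2h2aa1, Hist2h3c1 and Hist2h3c2, listed at 0 in all 8 libraries, and Hist1h2be, Hist1h4m and Hist2h2aa2, never above 0.334 TPM. Copies that share most of their sequence are common among them: 93.1 to 100% of the 50-base words of Hist1h2ao, Hist1h2ap, Hist1h2bq, Hist1h2br, Hist2h2aa1 and Hist2h2aa2 occur in another transcript, so a listed 0 is no measure of their expression. Sharing was 34.8% for Hist2h3c1 and 63.5% for Hist2h3c2. Among members with a mean of at least 100 TPM, sharing ran from 0% (as in Hist2h2bb) to 93.9% (Hist1h3h). It was 90.7% for Hist1h2ah, 90.1% for Hist1h2ai, 87.6% for Hist1h3i and 38.2% for Hist1h2ba. Values of members with shared words can include reads of copies.

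Histone mRNA made up a large part of each library. Summed member TPM was 5.53, 6.01, 7.60 and 3.77% of all TPM under CPF and 7.74, 6.93, 5.84 and 5.04% under DMSO. As a share of coding TPM the sums were 7.50, 8.26, 10.4 and 5.09% in CPF and 10.3, 9.94, 9.24 and 9.44% in DMSO. The DMSO course therefore went down from stage to stage as a share of all TPM, to 0.65 of its E12.5 value, but lay at 0.92 of it as a share of coding TPM. The CPF course peaked at E16.5 and was lowest at E18.5 on both scales, at 0.68 of its E12.5 value. The ratio of CPF to DMSO was 0.71, 0.87, 1.30 and 0.75, and 0.73, 0.83, 1.13 and 0.54 on the coding scale.

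**Figure D1:**
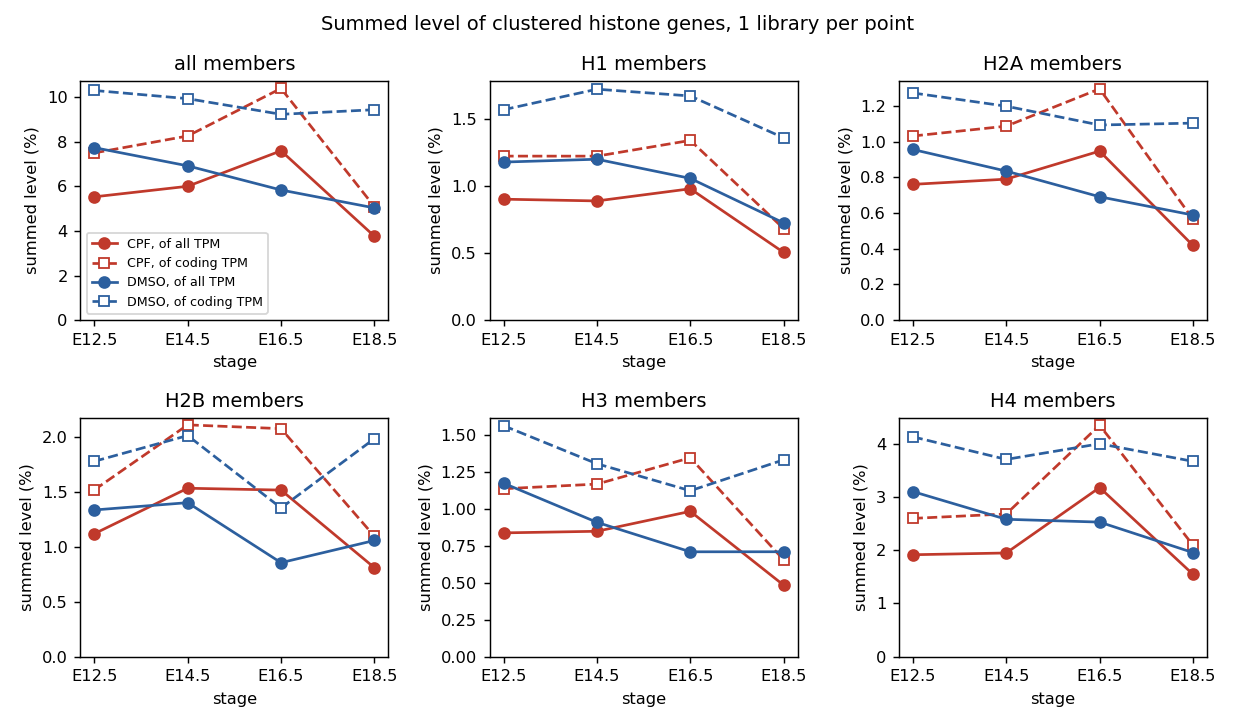
Summed level of all 67 members and of each histone type, in percent, against stage. Each point is 1 library; filled points are the share of all TPM and open points the share of coding TPM, CPF in red and DMSO in blue. On both scales the CPF sum of all members peaks at E16.5 (7.60% of all TPM) and is lowest at E18.5 (3.77%).

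The levels were spread unevenly over the types and members. H4 genes held 1.55 to 3.17% of all TPM per library, H2B genes 0.81 to 1.53%, H1 genes 0.51 to 1.20%, H3 genes 0.49 to 1.18% and H2A genes 0.42 to 0.96%. The 10 members with the highest means, 5 of them H4 and 3 of them H1, held 48.7% of the summed mean level. Between the lowest and the highest of the 8 libraries the median member with a mean of at least 100 TPM varied 2.76-fold, against 2.09-fold for the 1371 genes of all kinds at that level.

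**Figure D2:**
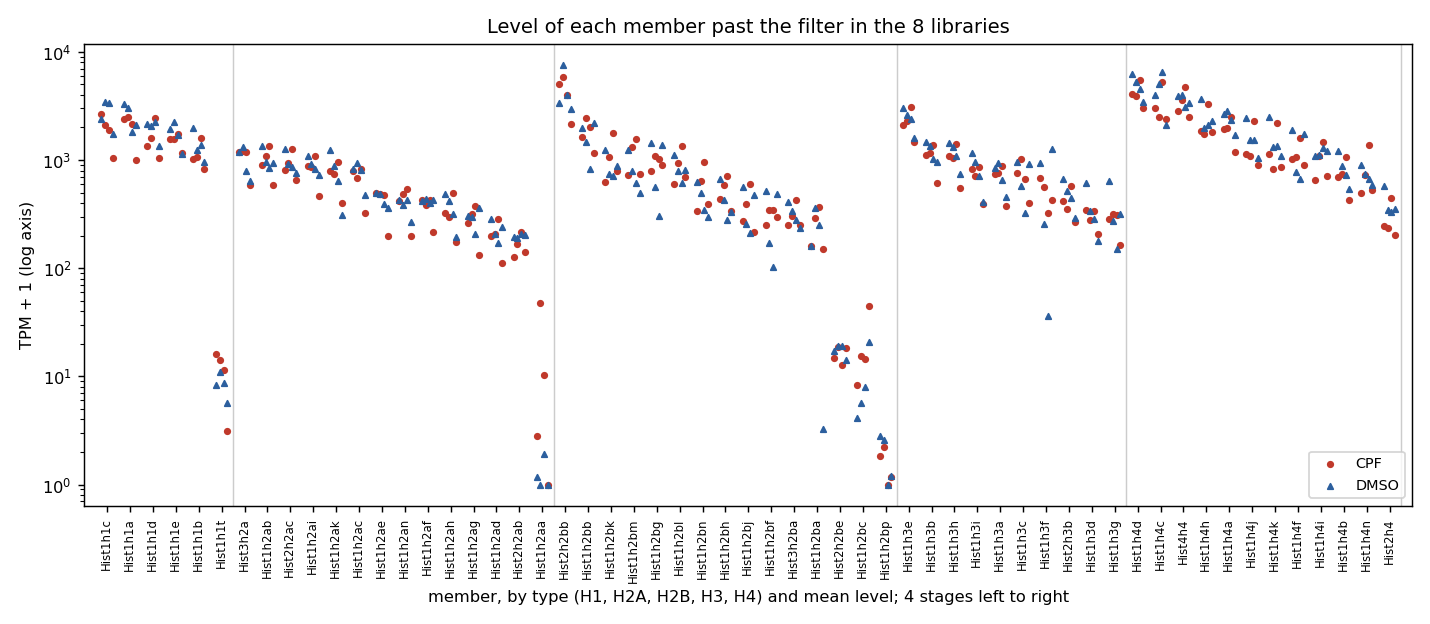
TPM + 1 on a log axis for the 57 members past the filter, grouped by type and ordered by mean level; within a member the 4 stages run from left to right, CPF as red circles and DMSO as blue triangles. Of the 57, 52 have a mean of at least 100 TPM; the others are Hist1h1t, Hist1h2aa, Hist2h2be, Hist1h2bc and Hist1h2bp. Hist1h2ba in DMSO E18.5 lies far under its other libraries.

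The linker histones of somatic cells, which bind the DNA between nucleosomes, were all abundant. Hist1h1c read 2674, 2127, 1894 and 1039 TPM under CPF and 2392, 3420, 3383 and 1739 TPM under DMSO. Hist1h1a read 2406, 2509, 2147 and 990 TPM against 3309, 3056, 1825 and 2085 TPM. Hist1h1d had a mean of 1785 TPM and Hist1h1e one of 1624 TPM. The testis linker histone Hist1h1t had a mean of 8.77 TPM and read between 2.13 and 15.1 TPM.

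H2A and H2B form the dimers that flank the central tetramer of the nucleosome. The H2A genes with the highest means were Hist3h2a (1012 TPM), Hist1h2ab (998 TPM), Hist2h2ac (931 TPM) and Hist1h2ai (860 TPM). Hist3h2a lies with Hist3h2ba, an H2B gene of 310 TPM on average, in the Hist3 cluster, at 58954685 to 58955192 and 58948911 to 58949372 of chromosome 11. Of all H2B genes Hist2h2bb stood highest, with 5061, 5838, 4014 and 2131 TPM under CPF and 3365, 7566, 4009 and 2969 TPM under DMSO. It was followed by Hist1h2bb (1719 TPM), Hist1h2bk (980 TPM) and Hist1h2bm (935 TPM).

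H3 and H4 form the tetramer itself. Hist1h3e led the H3 genes with a mean of 2322 TPM, before Hist1h3b (1132 TPM), Hist1h3h (1089 TPM) and Hist1h3i (757 TPM). Hist1h4d had the highest mean of all members, and read 4101, 3921, 5505 and 3046 TPM under CPF and 6256, 5274, 4576 and 3471 TPM under DMSO. Hist1h4c (3867 TPM), Hist4h4 (3492 TPM) and Hist1h4h (2351 TPM) followed. Hist4h4, alone in its cluster at 136803993 to 136804431 of chromosome 6, read 2820, 3569, 4709 and 2493 TPM under CPF and 3882, 4011, 3094 and 3360 TPM under DMSO, so the agents overlapped.

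The comparison of agents over the 4 stage pairs asked whether chlorpyrifos-exposed kidneys held another level of histone mRNA. None of the 57 members passed in limma over 13677 genes (adjusted p under 0.05), and 1 had an unadjusted p under 0.05. Among all genes tested, 0.154% were called higher and 0.00731% lower. The members' median difference, CPF minus DMSO on the log2(TPM + 1) scale, was -0.15, with 39 of 57 below 0, while that of all genes was 0.15. It was -0.02 without the E12.5 pair (30 of 57 below 0), -0.03 without E18.5 (31 of 57) and -0.34 without E16.5 (51 of 57). Relative to all genes the median was -0.30, and -0.04 without E18.5. With quantile normalization or coding scaling, 46 of 57 lay below 0, with a median of -0.29 for both. The median of all genes moved to -0.03 and -0.0046, with 55.6% and 50.7% of them below 0. Relative to all genes, H1, H2A, H3 and H4 medians were -0.46, -0.30, -0.32 and -0.43, and that of H2B was 0.06. The H2B value was -0.14 without the E14.5 pair, -0.32 without E16.5 and -0.53 without both, and the H2A value was 0.02 without E18.5.

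The highest and lowest members of each type show the spread behind these medians. Among H1 genes Hist1h1t differed by 0.22 ± 0.33 (SE, n = 4 pairs) and Hist1h1c by -0.53 ± 0.24. Among H4 genes Hist1h4n differed by 0.00031 ± 0.28 and Hist2h4 by -0.53 ± 0.26. Hist1h4n turned to -0.20 with quantile normalization and -0.18 with coding scaling. Among H3 genes Hist1h3f differed by 0.57 ± 0.82 and Hist2h3b by -0.25 ± 0.23. Hist1h3f lay at -0.28 without the E16.5 pair and at -1.01 without both E14.5 and E16.5, and Hist1h1t at -0.03 without E12.5. Among H2A genes Hist1h2aa differed by 2.32 ± 0.93 and Hist2h2ab by -0.31 ± 0.21, and among H2B genes Hist1h2ba by 1.44 ± 1.19 and Hist1h2bp by -0.21 ± 0.28. Hist1h2ba lay at 0.08 without the E18.5 pair, and Hist1h2aa at 1.23 without E14.5. Adjusted p from limma was 0.53 or more for each of these 10.

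Within each stage 1 CPF library stands against 1 DMSO library, so these ratios have no replicate check and no test. Members with a pair mean of at least 5 TPM were called at more than 2-fold. At E12.5 48 of 55 members lay lower in CPF, with a median log2 ratio of -0.57, or -0.36 relative to all genes. There 6 were more than 2-fold lower and 1 higher, beside 1.84% lower and 3.68% higher of all genes. H4 and H2B lay lowest by median, at -0.83 and -0.75. Hist2h4 was lowest of all, at 242 TPM under CPF and 572 TPM under DMSO. By summed TPM the ratio of CPF to DMSO was 0.62 for H4 but 0.84 for H2B, the highest of the types. The Hist1 H2B genes alone gave 0.61. Of 14 H2B members 3 lay higher in CPF, among them Hist2h2bb, the most abundant, at 5061 TPM under CPF and 3365 TPM under DMSO.

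At E14.5 the types parted: the H2B median was 0.47, with 10 of 14 members higher in CPF, all of them in Hist1. The H4 median was -0.34, with 11 of 12 lower. More than 2-fold differences numbered 4 higher and 1 lower of 56, beside 4.4% and 1.21% of all genes. At E16.5 53 of 56 members lay higher in CPF, with a median of 0.55, or 0.40 relative to all genes. More than 2-fold differences numbered 15 higher and 0 lower, beside 5.67% and 1.76% of all genes. Of the 15, 9 were H2B genes, all in Hist1. The H2B median was 1.30, but Hist2h2bb, the most abundant H2B gene, read 4014 TPM under CPF and 4009 TPM under DMSO. With coding scaling the member median was 0.34, or 0.39 relative to all genes. On that scale 11 members were more than 2-fold higher, 8 of them H2B, and 1 lower, beside 533 higher and 377 lower of 10389 genes. The H1 median at E16.5 was 0.16, and -0.05 with coding scaling.

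At E18.5 43 of 54 members lay lower in CPF, while the median of all genes was 0.61. The member median was -0.37, or -0.98 relative to all genes, and 6 were more than 2-fold lower and 2 higher, beside 1.09% and 23.8% of all genes. With coding scaling the member median was -0.84 and that of all genes 0.17, so the relative value stayed near -1 (-1.01), and 22 of 55 members were more than 2-fold lower and 1 higher, beside 331 lower and 1074 higher of 10169 genes on that scale. Hist1h3f was lowest, at 424 TPM under CPF and 1254 TPM under DMSO.

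**Figure D3:**
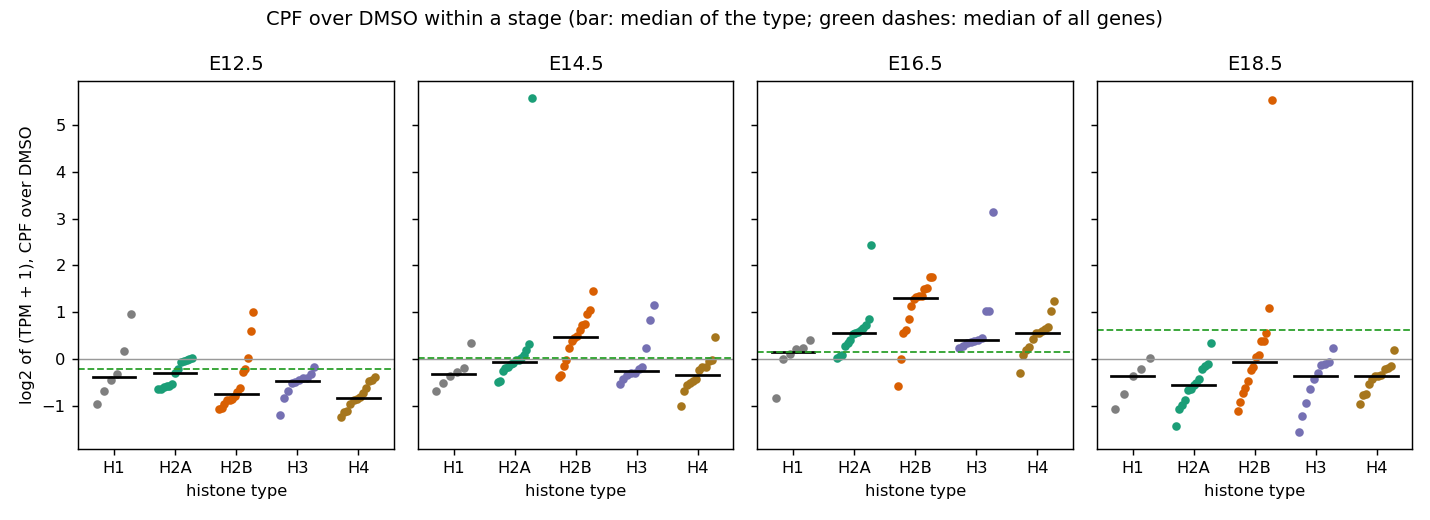
Log2 ratio of TPM + 1, CPF over DMSO, for each member with a pair mean of at least 5 TPM, by histone type at each stage. Black bars are the medians of the types and green dashes the median of all genes; at E16.5 the H2B median is 1.30 against 0.15 for all genes, and at E18.5 all 5 type medians lie under the 0.61 of all genes.

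The comparison of E18.5 with E12.5, 2 libraries against 2 in the same fit, asked how the level moved over nephrogenesis. Of 57 members 51 lay below 0, with a median of -0.64. The median of all genes was -0.21, with 63.1% below 0. In limma with Benjamini-Hochberg adjustment 3 members fell and 1 rose, beside 3.73% lower and 4.67% higher of all genes, so the called shares of 57 members are close to those of all genes. H3 and H2A medians lay lowest, at -0.91 and -0.81, followed by H1 at -0.80, H4 at -0.55 and H2B at -0.29. With quantile normalization or coding scaling 45 of 57 lay below 0, with medians of -0.37 and -0.40. Of all genes 57.8% and 50.5% lay below 0 there, with medians of -0.12 and -0.0055.

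The H2A gene Hist1h2ak, at 21753377 to 21753912 of chromosome 13 (minus strand), read 793, 741, 955 and 396 TPM under CPF and 1233, 885, 646 and 310 TPM under DMSO. Both E18.5 libraries lie under the 6 others. It fell by 1.49 ± 0.35 on the log2 scale (adjusted p = 0.0189). The H3 gene Hist1h3i, at 21782915 to 21783397, read 833, 714, 865 and 391 TPM against 1164, 967, 712 and 411 TPM and fell by 1.29 ± 0.31 (adjusted p = 0.0238). The H3 gene Hist1h3d, at 23575763 to 23576266, read 346, 277, 334 and 207 TPM against 614, 339, 283 and 176 TPM and fell by 1.27 ± 0.33 (adjusted p = 0.0323). All 3 missed the threshold with quantile normalization (adjusted p of 0.057, 0.0523 and 0.0552) and without the filter on low values (0.0825, 0.0727 and 0.114).

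Hist1h2bc, an H2B gene spanning 23684199 to 23692480 of chromosome 13 in RefSeq, went the other way. It read 7.26, 14.6, 13.6 and 43.4 TPM under CPF and 3.13, 4.70, 7.00 and 19.9 TPM under DMSO. The E18.5 library was the highest of each agent, and CPF exceeded DMSO at all 4 stages. It rose by 2.38 ± 0.38 from E12.5 to E18.5 (adjusted p = 0.00205 with limma), and its adjusted p ranged up to 0.0199 over the alternatives that hold it. Its CPF minus DMSO difference was 1.10 ± 0.27 (adjusted p = 0.138 with limma), the smallest adjusted p of any member in that comparison. Hist1h2bc has 2 RefSeq transcripts, so its level is a listed value of the kind that runs low in these files. The only GENCODE model searched for Hist1h2bc held no stem-loop although it runs past the stop codon. That of Hist1h3d held a stem-loop, and those of Hist1h2ak and Hist1h3i end at the stop codon.

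The slope over embryonic day was then compared between agents. None of the 57 members passed (limma, 1 at an unadjusted p under 0.05), and among all genes 0% were called higher and 0% lower, with 3615 at an unadjusted p under 0.05. The median difference in slope was 0.07 log2 units per day for members and 0.11 for all genes. Without the E18.5 pair it was 0.27 for members and 0.07 for all genes, with 5 of 57 members below 0 and 25 at an unadjusted p under 0.05. Of the 13401 genes in that fit, 35.9% lay below 0 and 902 had an unadjusted p under 0.05. Without the E12.5 pair the median was -0.05 for members and 0.13 for all genes, with 40 of 57 members below 0, beside 22.1% of all genes. Without E16.5 29 of 57 were below 0, beside 21.4% of all genes. In each of these fits 0 members were called. Hist1h3d had the smallest adjusted p, with a slope higher by 0.19 ± 0.07 per day in CPF (adjusted p = 0.161). A straight line has no term for a course that bends, as those of the next genes do.

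A group of 8 members dipped at the middle stages in DMSO and was chosen after its values were seen, so it gets no test. Hist1h3f read 938, 253, 35.4 and 1254 TPM under DMSO and 686, 566, 320 and 424 TPM under CPF. The DMSO library of E16.5 stands far under the other 7. Hist1h2bf, an H2B gene, read 514, 169, 101 and 489 TPM under DMSO and 250, 348, 343 and 295 TPM under CPF, and Hist1h2bg 1429, 556, 301 and 1362 TPM against 793, 1091, 1020 and 892 TPM. In both of these H2B genes the 2 middle DMSO libraries are the lowest of all 8. Hist1h4f, Hist1h2bj, Hist1h3g, Hist1h3c and Hist1h2bb complete the group. The mean of E14.5 and E16.5 minus that of E12.5 and E18.5 was between -3.50 and -0.92 on the log2 scale in DMSO for the 8, by which they were picked, and between -0.34 and 1.00 in CPF. Of all genes tested, 0.607% lay below -0.9 in DMSO. By the read worth estimated from low values, the 35.4 TPM of Hist1h3f rest on about 467 reads.

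Hist1h2ba, the H2B form known from the testis, was present throughout the kidney series but for 1 library. It read 160, 287, 364 and 150 TPM under CPF and 158, 363, 249 and 2.25 TPM under DMSO. The value of DMSO E18.5 rests on about 16 reads, against 615 to 1918 in the other 7. At E18.5 its log2 ratio was 5.54, and at E12.5 it was 0.02. In the fit on these 2 pairs alone it was called higher in CPF, by 2.78 (adjusted p = 0.0169 with limma). That difference rests on the E18.5 pair, and so on the DMSO value of about 16 reads. Of 12634 genes in that fit, 32 were called higher and 10 lower. No other member was called for the agent under any alternative run.

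Its neighbour Hist1h2aa, the H2A form of the testis, starts 280 bases away on the other strand and followed another course. It read 1.79, 47.1, 9.34 and 0 TPM under CPF and 0.178, 0, 0.895 and 0 TPM under DMSO, with CPF E14.5 and E16.5 above the 6 others. Of the 6 germ cell genes listed, all but Sycp3 were highest in that CPF E14.5 library. Dppa3 read 115 TPM, Mael 59.3 TPM and Tex12 51.7 TPM there, and these 3 were at or below 0.734 TPM in the DMSO libraries. In CPF E16.5 they read 1.39, 13.1 and 3.44 TPM. Sycp3 was highest in CPF E18.5, where Hist1h2aa was at 0, at 64.6 TPM, against 59.6 TPM in CPF E14.5 and 24.2 TPM in DMSO E18.5. Summed over the list, the level was 9.13, 287, 38.0 and 65.2 TPM under CPF and 10.1 to 24.5 TPM under DMSO. Dazl and Ddx4, with 2 RefSeq transcripts each, never exceeded 1.24 TPM. The part of germ cell RNA in the Hist1h2aa value was not tested.

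**Figure D4:**
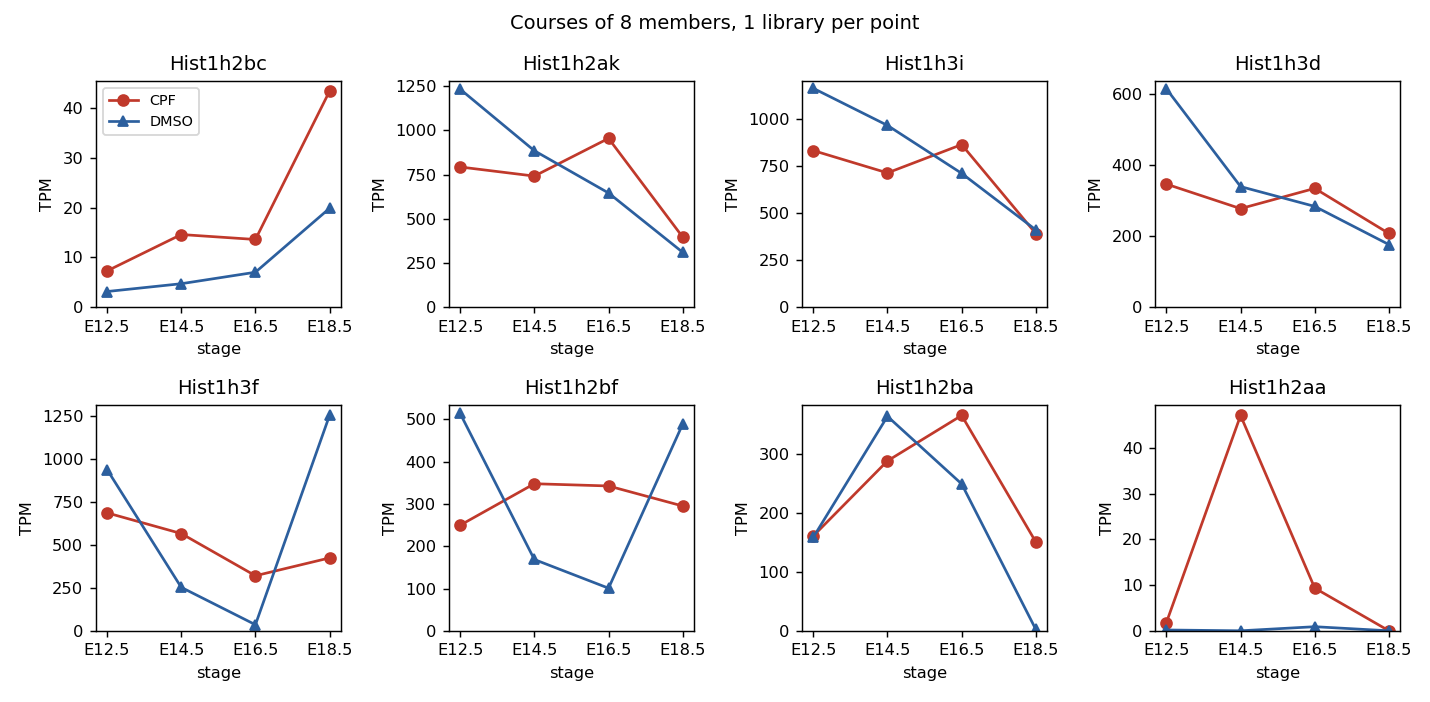
TPM against stage for 8 members, 1 library per point, CPF as red circles and DMSO as blue triangles, with a linear axis from 0 in each panel. The upper row holds the 4 members called between E18.5 and E12.5; the lower row shows the DMSO dip of Hist1h3f (35.4 TPM at E16.5) and Hist1h2bf, the low DMSO E18.5 value of Hist1h2ba (2.25 TPM) and the CPF E14.5 peak of Hist1h2aa (47.1 TPM).

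Many H2A and H2B genes sit head to head and share the stretch between their start sites. The RefSeq annotation holds 12 such pairs of members, 163 to 280 bases apart, and in 6 of them both partners averaged 100 TPM or more. In these 6 the H2B gene lay below its H2A partner in the log2 ratio of CPF to DMSO in 6 of 6 pairs at E12.5, by 0.54 in the median (-0.87 to -0.23). It lay above in 6 of 6 at E14.5, by 0.81 (0.34 to 1.06), and in 6 of 6 at E16.5, by 0.83 (0.65 to 1.49). At E18.5 it lay above in 5 of 6, by 0.29 (-0.01 to 0.41). Hist1h2ae, partner of Hist1h2bg, read 492, 485, 393 and 362 TPM under DMSO with a value of 0.05 for the middle against the outer stages, where Hist1h2bg had -1.77. The H2A partners of the other dipping H2B genes with a pair also lay lower at the middle stages in DMSO, by less: Hist1h2ad at -0.46 beside Hist1h2bf at -1.93, and Hist1h2ag at -0.42 beside Hist1h2bj at -1.16. These are ratios between the same 2 libraries at each stage, and the 6 pairs share them. Their genes also share sequence with other transcripts, from 43.2% of the 50-base words of Hist1h2ae to 90.7% of those of Hist1h2ah. The 6 pairs are therefore not separate measurements.

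**Figure D5:**
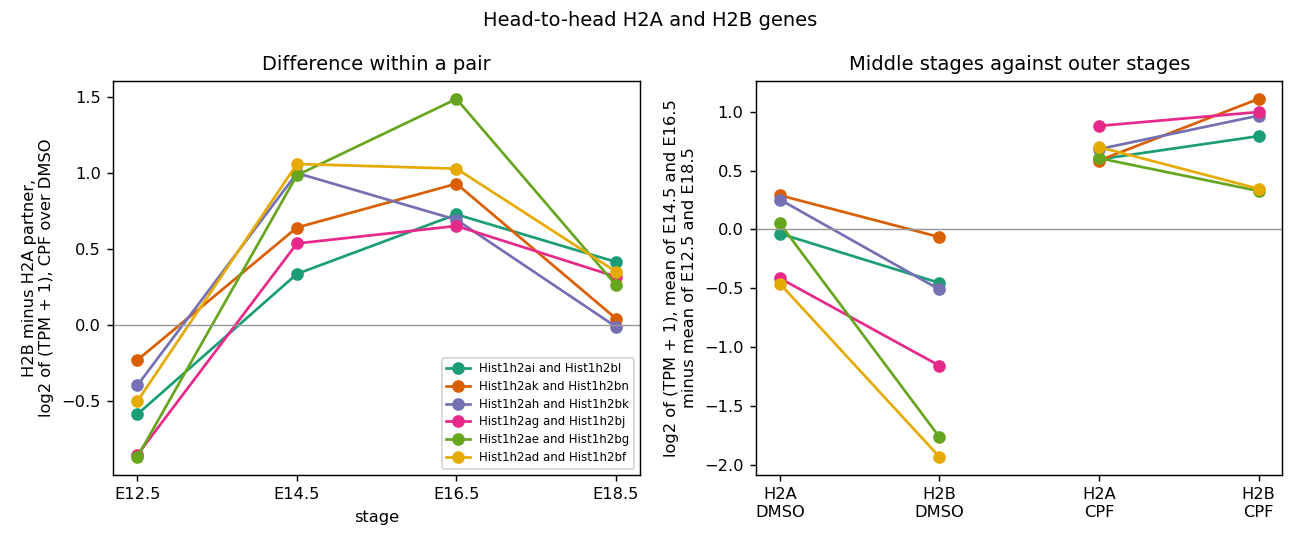
Left, the log2 ratio of TPM + 1, CPF over DMSO, of the H2B gene minus that of its head-to-head H2A partner, for 6 pairs over the stages. Right, the mean of E14.5 and E16.5 minus the mean of E12.5 and E18.5 on the log2 scale for each partner, DMSO and CPF; lines join partners, and the H2B gene lies lower in all 6 pairs in DMSO.

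Genes that make and finish histone mRNA came from a list of 24. Of the 17 that could be tested 3 fell between E12.5 and E18.5 and 0 rose, with all 17 below 0 and a median of -0.61. Among all genes tested, 3.73% fell and 4.67% rose, with 63.1% below 0 and a median of -0.21. None of the 17 was called for the agent, where their median was -0.02, beside 0.15 for all genes. Npat, the coactivator of the clusters, read 60.4, 74.6, 52.5 and 52.4 TPM under CPF and 62.3, 53.0, 49.9 and 36.4 TPM under DMSO, and differed between agents by 0.26 ± 0.22. Hinfp, which binds H4 promoters, differed by 0.08 ± 0.24, and Lsm11 of the U7 particle by -0.02 ± 0.30. Slbp, with 3 RefSeq transcripts, and the U7 RNA Rnu7 were listed at 0 in all libraries, and Casp8ap2 and Lsm10, with 2 transcripts each, never exceeded 0.972 TPM, so these 4 could not be compared. The fallers were the Sm protein gene Snrpd3 (-1.53 ± 0.31, adjusted p = 0.0101 with limma), the cap-binding gene Ncbp2 (-1.09 ± 0.30, 0.041) and Nasp, a histone chaperone gene with 3 RefSeq transcripts (-2.59 ± 0.34, 0.000682). Snrpe and Snrpb had the highest means of the list and did not pass.

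Histone chaperones, which carry new histones to DNA, had 4 of 13 members fall with stage, beside 3.73% of all genes. These were the chromatin assembly factor genes Chaf1a (-1.34 ± 0.33) and Chaf1b (-1.21 ± 0.32), the acetyltransferase gene Hat1 (-1.06 ± 0.30) and Nap1l1 (-1.31 ± 0.29). Their adjusted p from limma was 0.0256, 0.0366, 0.0477 and 0.0168. Rbbp4, the gene of the remaining subunit of that factor, differed by -0.97 ± 0.29 and did not pass (adjusted p = 0.0583 with limma). Rbbp7, with the highest mean of the list, differed by -0.09 ± 0.31 (adjusted p = 0.888 with limma). Replication genes had 9 of 18 fall and 0 rise, beside 3.73% and 4.67% of all genes. The list median was -1.06, and that of all genes -0.21. Among the fallers were the sliding clamp Pcna (-1.17 ± 0.31, adjusted p = 0.0351 with limma), the ribonucleotide reductase gene Rrm1 (-1.41 ± 0.27, 0.00759) and the cyclin gene Ccne1 (-2.03 ± 0.33, 0.00237). Mcm6, with the highest mean of the list, differed by -0.77 ± 0.30 and did not pass (adjusted p = 0.128 with limma). Between agents the replication list had a median of -0.0016, with 9 of 18 above 0. The mitosis list had one of 0.10, with 12 of 15 above 0. The histone median was -0.15 and that of all genes 0.15, with 27.4% of all genes below 0. None of the genes of these lists was called for the agent.

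Replacement histones had 1 of 10 fall with stage, the macroH2A gene H2afy2 (-1.11 ± 0.32, adjusted p = 0.0488 with limma), beside 3.73% of all genes. Between agents 0 of them differed, beside 0.154% of all genes higher and 0.00731% lower. H3f3a read 866, 1361, 1196 and 978 TPM under CPF and 829, 941, 908 and 1071 TPM under DMSO, and H3f3b 795, 762, 875 and 894 TPM against 948, 728, 799 and 665 TPM. Neither passed in any of the 3 comparisons, with stage differences of 0.27 ± 0.31 and -0.17 ± 0.31. Both read above the mean level of most H3 members.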

How the data were processed

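The 8 libraries were deposited as TPM per RefSeq transcript, 32862 transcripts each. Trimmomatic and STAR, with mm10, are named per the submitters' processing notes, without versions; how the authors turned alignments into TPM, and how reads that match several transcripts or histone copies were assigned, is not stated. Transcripts were summed per symbol, and 52 symbols turned into numbers were restored by RefSeq identifier.

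Differences were tested with limma 3.58.1 (R 4.3.3; trend, robust) on log2(TPM + 1) over 13677 genes with at least 1 TPM in at least 2 libraries, with stage and agent as terms (3 residual degrees of freedom), or agent, day and their product (4), Benjamini-Hochberg adjusted over all genes at 0.05. Fold changes on this scale understate low genes. The procedure was tested on simulated data. Within a stage, log2 ratios are given without a test. Tables were made with pandas.

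Low miRNA and snoRNA values were whole multiples of 1 read's worth for 92.2 to 96.3% (tolerance 0.05 reads), giving 0.0616 to 0.106 TPM per read for 1 kb; read numbers quoted are such estimates.

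Members were matched to RefSeq by identifier (67 of 67). Named members are the 4 highest means and the extremes of the agent difference per type, called members, Hist3, Hist4 and testis members, and 7 processing genes; further listed genes are named where called or among the 2 highest of their list. Members and lists were chosen with earlier results of these data known. Head-to-head pairs and the dipping group were chosen after values were seen.

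Alternatives were quantile normalization, scaling to coding transcripts, other filters and pseudocounts, 1-transcript genes, other stage terms, and leaving out stage pairs.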

Additional observations from a re-analysis of the deposited data

How the results depend on the processing

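No paired analysis beyond the stage term was possible because each group holds 1 library. For E18.5 against E12.5, the 4 called members became 1 with quantile normalization and 1 without a filter (0 called lower in both). They became 7 with the stricter filter (6 lower) and 6 with pseudocount 0.1 (5 lower). With only 1-transcript genes 0 were called higher, since Hist1h2bc is then not tested. Among all genes, 845 were called higher and 533 lower of 13677 with quantile normalization, and 271 and 123 of 22223 without a filter. With the stricter filter 531 were higher and 608 lower of 9400, with pseudocount 0.1 727 and 605 of 13677, and with 1-transcript genes 614 and 500 of 12409. The median of members was -0.37 with quantile normalization, -0.40 with coding scaling and -0.53 in CPF libraries alone; relative to all genes it was -0.25 with quantile normalization and -0.58 without a filter, and that of H2B 0.0101 with quantile normalization and 0.0172 with the stricter filter. For CPF against DMSO, without the E14.5 and E16.5 pairs 1 member was called higher, beside 32 higher and 10 lower of 12634 genes. The H2B median relative to all genes was then -0.53, and Hist1h3f differed by -1.01 and Hist1h4n by -0.50. Hist1h4n differed by -0.20 with quantile normalization and -0.18 with coding scaling. Leaving out 1 stage pair gave ranges of -0.52 to 0.0213 for the H2A median, -0.32 to 0.33 for H2B, -0.0321 to 0.57 for Hist1h1t, -0.28 to 1.28 for Hist1h3f and -0.34 to 0.28 for Hist1h4n. Over the same exclusions the member median relative to all genes ranged from -0.51 to -0.04, and the raw one from -0.34 to -0.02. Within stages, coding scaling gave 2 members more than 2-fold higher at E12.5 (2 also with pseudocount 0.1), 1 lower at E16.5, and 1 higher and 22 lower at E18.5; among all genes it gave 421 higher of 9759 at E12.5 (372 of 9200 with pseudocount 0.1), 377 lower of 10389 at E16.5 and 1074 higher and 331 lower of 10169 at E18.5. It moved the ratio of summed levels to 0.54 at E18.5 and the DMSO ratio of E18.5 to E12.5 to 0.92. Apart from the settings that test other genes or fewer libraries, the cause was not tested. With 1 library per group, no difference within a stage can be set against replicate spread, and near-identical histone copies cannot be told apart in these values.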
